A study of Saccharomyces cerevisiae with 2 samples.

Results

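The genes described here encode 10 subunits of the vacuolar proton ATPase (V-ATPase) of *Saccharomyces cerevisiae*: *VMA1*, *VMA2*, *VMA4*, *VMA5*, *VMA6*, *VMA7*, *VMA8*, *VMA13*, *VPH1* and *STV1*. They were taken by name, not by a cutoff on measured values, out of 5699 genes listed in either of the deposited tables. Earlier results of these data were known when they were chosen. Of the 10, 9 are listed under these symbols, and *VMA1* is listed under its older symbol *TFP1* and was found by its gene identifier. Poly(A) RNA of early stationary phase cultures was sequenced from BYZ1, a diploid laboratory strain isogenic to S288c, and from ZK2, which is labelled as a strain for bioethanol. BYZ1 is homozygous for his3delta1, leu2delta0 and ura3delta0 and heterozygous for lys2delta0 and met15delta0, and no genotype is given for ZK2. Both strains were grown in 25 mL of YPD from an initial OD600 of 0.05. For yeast extract, peptone and glucose the labels state 1, 2 and 2 g/L in BYZ1 and 10, 20 and 20 g/L in ZK2, whereas the methods of the study describe YPD in general with the composition given for ZK2. If the labels are right, the strain and the medium cannot be told apart.

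The V-ATPase is a rotary pump that uses ATP to move protons into the vacuole, the Golgi and endosomes. Its peripheral V1 sector hydrolyses ATP and its membrane-embedded V0 sector carries the protons. In yeast the sectors separate reversibly when glucose runs out, and the acid vacuole drives the uptake of amino acids, calcium and zinc. In V1, the A and B subunits form the catalytic ring and occur in several copies, as does the E subunit of the peripheral stalks, whereas C, D, F and H occur in a single copy. In V0, the a subunit exists as alternative isoforms, Vph1 at the vacuole and Stv1 at the Golgi and endosomes.

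Each strain has 1 library, with 4687047 uniquely mapped gene reads over 5671 genes in BYZ1 and 4571043 over 5605 genes in ZK2. The values therefore carry no replicate error, and the strains could not be tested against each other. Strain and library cannot be told apart either. Levels are given as RPKM (reads divided by coding length and by the total of mapped reads) with the exact Poisson 95% interval of the reads, and ratios with an exact binomial (Clopper-Pearson) 95% interval. These intervals cover counting error only, and can be too narrow even for that where PCR copies were counted. The strain labels were checked with the deleted markers. *URA3*, of pyrimidine synthesis, had 0 reads in BYZ1, where the limit from 3 reads is an RPKM of 0.796, and 123 reads in ZK2. *LEU2*, of leucine synthesis, had 1 read in BYZ1 and 360 in ZK2. *HIS3*, of histidine synthesis, had 156 reads in BYZ1, which covered 67.42% of its length, and 159 in ZK2, which covered 98.94%.

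All 10 genes were well expressed in both strains. Their reads ranged from 239 to 4046 per gene in BYZ1 and from 236 to 6216 in ZK2, and between 94.12% and 99.87% of each coding length was covered. Together they took 0.333% of the gene reads in BYZ1 and 0.392% in ZK2. The median RPKM of the 10 genes was 145 in BYZ1 and 204 in ZK2, where the median listed gene had 37.2 and 33.9. Every gene but *STV1* lay above at least 79.8% of the listed genes in both libraries. The summed RPKM of the 10 genes was nearly the same, 2354 in BYZ1 and 2410 in ZK2. Its division among the subunits differed, with a V1 sum of 2050 in BYZ1 and 1937 in ZK2, and a V0 sum of 305 in BYZ1 and 473 in ZK2.

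**Figure D1:**
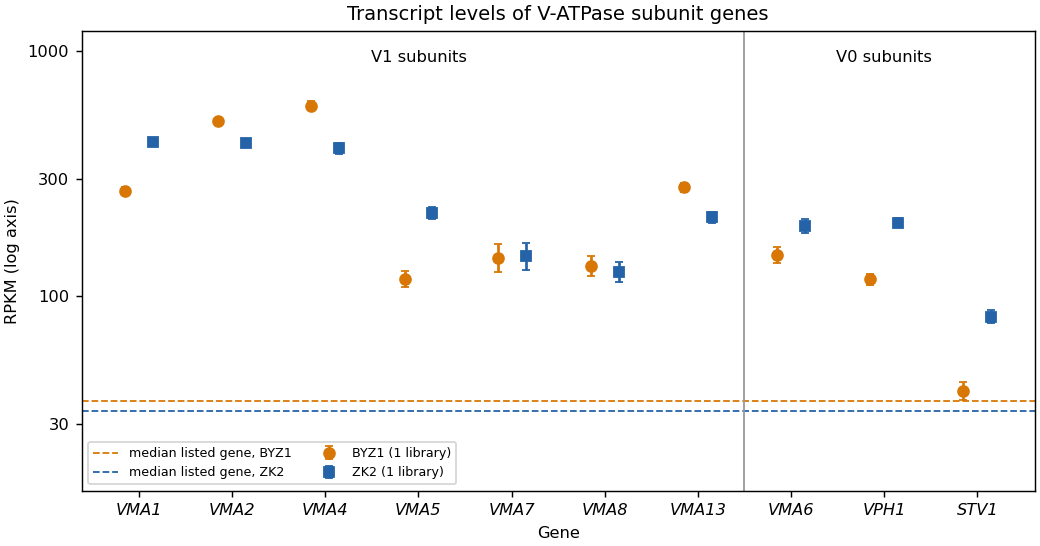
RPKM (log axis) of the 10 V-ATPase genes in BYZ1 (circles) and ZK2 (squares), 1 library each. Bars are exact Poisson 95% intervals, and dashed lines mark the median listed gene of each library (37.2 and 33.9). *VMA1*, *VMA2* and *VMA4* lie close together in ZK2 (399 to 423) and far apart in BYZ1 (268 to 596), and *VMA5*, *VMA6*, *VPH1* and *STV1* lie higher in ZK2.

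*VMA1* encodes the catalytic A subunit, on which ATP is hydrolysed. Its coding region is on chromosome IV (plus strand, 126788 to 130003, sacCer2, the build named for both samples). BYZ1 gave 4046 reads and an RPKM of 268 (260 to 277), and ZK2 gave 6216 reads and an RPKM of 423 (412 to 433). The level in ZK2 was 1.58 times that in BYZ1 (1.51 to 1.64). The *VMA1* reading frame also encodes an intein, the endonuclease VDE (PI-SceI), which splices itself out of the protein after translation, so that its sequence is part of the mRNA and of the listed length. In the S288c reference R64, the intein runs from residue 284 to residue 737 of 1071 and takes 1362 of the 3216 coding bases (42.4%). The frame that is left after splicing corresponds to 1854 bases. Reads covered 99.81% of the listed *VMA1* length in BYZ1 and 99.72% in ZK2, which leaves about 6 and 9 bases uncovered. Reads therefore mapped across the intein sequence in both strains. The joins of the intein are printed because the extein and intein share this single transcript, with intein bases in capitals, as 30 bases on each side of each join on the plus strand of R64 (RefSeq), chrIV:127606-127665 for the start and chrIV:128968-129027 for the end.
VMA1 start of the intein: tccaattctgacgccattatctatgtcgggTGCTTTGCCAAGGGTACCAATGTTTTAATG
VMA1 end of the intein: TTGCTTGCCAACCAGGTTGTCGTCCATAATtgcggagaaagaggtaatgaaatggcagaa

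*VMA2* encodes the B subunit, which alternates with A in the ring of V1 (chromosome II, minus strand, 491263 to 492816). It had 3764 reads and an RPKM of 517 (500 to 534) in BYZ1, and 2980 reads and an RPKM of 420 (405 to 435) in ZK2, a ratio of 0.812 (0.773 to 0.852). The partners of the ring thus differed in opposite directions. The RPKM of *VMA1* over that of *VMA2* was 0.519 (0.497 to 0.543) in BYZ1 and 1.01 (0.965 to 1.05) in ZK2. This ratio within a library does not depend on how the libraries are scaled. It was 1.94 times higher in ZK2 (exact conditional odds ratio of the reads, 1.82 to 2.07). In ZK2 the transcripts of the ring subunits were therefore at the same level within counting error, and in BYZ1 that of A was about 0.519 of that of B.

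*VMA4* encodes the E subunit of the peripheral stalks, which hold the ring still while the rotor turns (chromosome XV, plus strand, 943653 to 944354). It had 1961 reads in BYZ1, the highest RPKM of the 10 genes there at 596 (570 to 623), and 1280 reads in ZK2, at 399 (377 to 421). Its ratio of 0.669 (0.623 to 0.718) was the lowest of the 10. *VMA5* encodes the C subunit, which bridges the stalks to V0 and leaves the complex when the sectors separate (chromosome XI, plus strand, 284674 to 285852). It had 646 reads and an RPKM of 117 (108 to 126) in BYZ1, and 1169 reads and an RPKM of 217 (205 to 230) in ZK2, and its ratio of 1.86 (1.68 to 2.05) was the highest among the V1 genes. *VMA4* stood 5.10 times above *VMA5* in BYZ1 (4.66 to 5.58) and 1.84 times above it in ZK2 (1.70 to 1.99).

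*VMA13* encodes the H subunit, which inhibits ATP hydrolysis by V1 that has come off the membrane (chromosome XVI, plus strand, 643833 to 645269). Its 1862 reads in BYZ1 gave an RPKM of 276 (264 to 289), and its 1374 reads in ZK2 gave 209 (198 to 221), a ratio of 0.757 (0.705 to 0.812). The genes of the central rotor stalk showed little difference. *VMA8*, the D subunit gene (chromosome V, plus strand, 58378 to 59148), was at 132 (121 to 145) in BYZ1 and 125 (114 to 137) in ZK2 (ratio 0.946, 0.829 to 1.08). *VMA7*, the F subunit gene (chromosome VII, minus strand, 526977 to 527333), was at 143 (125 to 162) in BYZ1 and 145 (127 to 164) in ZK2 (ratio 1.01, 0.842 to 1.22). *VMA7* had the fewest reads of the 10 genes, 239 and 236, so that a difference under about 1.22 times would not be seen at this depth. The ratio of *VMA7* to *VMA8* had an interval that holds 1 in both libraries, at 1.08 (0.921 to 1.26) in BYZ1 and 1.16 (0.983 to 1.36) in ZK2.

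All of the V0 genes among the 10 were higher in ZK2. *VMA6* encodes the d subunit, which couples the rotor stalk to the membrane ring (chromosome XII, minus strand, 1026853 to 1027890). It had 716 reads and an RPKM of 147 (137 to 158) in BYZ1 and 913 reads and an RPKM of 192 (180 to 205) in ZK2, a ratio of 1.31 (1.18 to 1.44). *VPH1*, the vacuolar a subunit gene (chromosome XV, minus strand, 828051 to 830573), had 1379 reads and an RPKM of 117 (111 to 123) in BYZ1, and 2289 reads and an RPKM of 198 (190 to 207) in ZK2, a ratio of 1.70 (1.59 to 1.82). *STV1*, the a subunit gene of the Golgi and endosomes (chromosome XIII, plus strand, 383302 to 385974), had 512 reads and an RPKM of 40.9 (37.4 to 44.6) in BYZ1, and 1003 reads and an RPKM of 82.1 (77.1 to 87.3) in ZK2. Its ratio of 2.01 (1.80 to 2.24) was the highest of the 10. *STV1* lay above 53.0% of the listed genes in BYZ1 and above 73.1% in ZK2.

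The vacuolar isoform of the a subunit was the more abundant transcript in both strains. *VPH1* over *STV1* was 2.85 (2.58 to 3.16) in BYZ1 and 2.42 (2.24 to 2.61) in ZK2, so that *VPH1* made up 74.0% (72.0 to 76.0) of the RPKM of the isoforms in BYZ1 and 70.7% (69.2 to 72.3) in ZK2. The ratio in ZK2 was 0.847 times that in BYZ1 (0.746 to 0.962), an interval that lies below 1 but covers counting error only. The ratio of the isoforms thus differed between the libraries by less than either level did, 1.70 times for *VPH1* and 2.01 times for *STV1*. *VPH1* over the d subunit gene *VMA6* went from 0.792 (0.723 to 0.868) in BYZ1 to 1.03 (0.955 to 1.11) in ZK2. With *STV1* added, the RPKM of the a subunit transcripts summed to 157 in BYZ1 and 281 in ZK2, against 147 and 192 for *VMA6*.

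**Figure D2:**
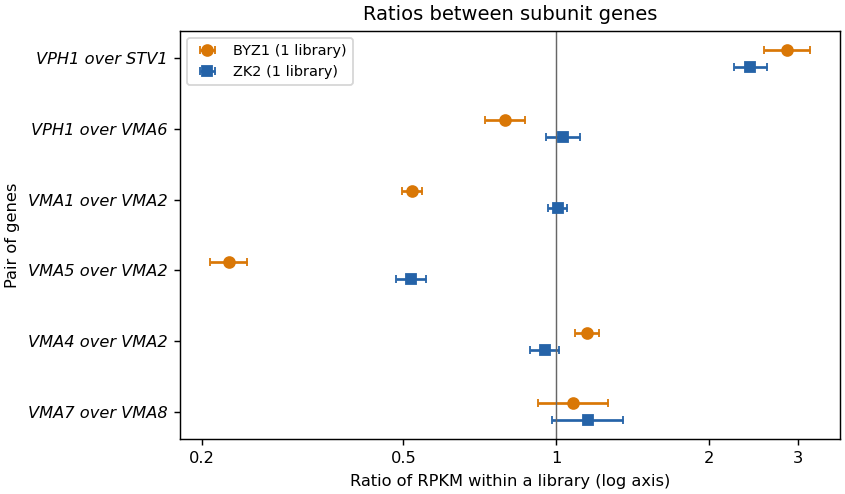
Ratio of RPKM between pairs of subunit genes within a library (log axis), in BYZ1 (circles) and ZK2 (squares), with exact 95% binomial intervals. *VPH1* over *STV1* is above 2 in both strains, whereas *VMA1* over *VMA2* is 0.519 in BYZ1 and 1.01 in ZK2.

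The isoforms can be told apart by the reads. As translated from R64, Vph1 has 840 residues and Stv1 890, and 54.9% of the 811 aligned residues are identical. Identity is 42.8% over the first 420 residues of Vph1, the cytosolic part known to carry the targeting information, and 66.8% over the rest, which holds the membrane part of the proton path. Stv1 holds the residues WKY from position 83, part of the stretch through which it is known to bind a Golgi phosphoinositide, and Vph1 does not have them. The coding sequences are 60.6% identical, and the longest run they share is 19 bases. Every 49-base window of all 10 genes was unique in R64 at up to 2 mismatches, so that in the reference no read of this length is shared with another copy. The match of ZK2 reads to the reference sequence was not tested. No other annotated gene of R64 overlaps any of the 10. The closest neighbor facing a member at its 3′ end was *BUB2*, 125 bases from *STV1*, at an RPKM of 34.3 in BYZ1 and 54.9 in ZK2. *UGA1* faces *VMA7* at its 3′ end from 328 bases, at an RPKM of 230 in BYZ1 and 128 in ZK2, where *VMA7* had 143 and 145. The counts are not stated to use strand. Reads of *BUB2* or *UGA1* that run into *STV1* or *VMA7* therefore cannot be told apart from those of the member.

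The promoters of *VPH1* and *STV1*, the genes of the isoforms, are shown with those of *VMA1* and *VMA4*, which differed in opposite directions between the strains. Each is the R64 (RefSeq) sequence of S288c from 250 bases before the start codon to 50 bases from its first base on, 5′ to 3′ on the strand of the gene. Capitals mark AGGGG, the stress response element bound by Msn2 and Msn4, CCAAT, bound by the Hap complex of respiratory genes, and TATAAA, each on either strand, none of which is in the *VPH1* window. The locations are chrXV:830525-830824 (minus strand), chrXIII:383053-383352 (plus), chrIV:126537-126836 (plus) and chrXV:943406-943705 (plus).
VPH1 promoter: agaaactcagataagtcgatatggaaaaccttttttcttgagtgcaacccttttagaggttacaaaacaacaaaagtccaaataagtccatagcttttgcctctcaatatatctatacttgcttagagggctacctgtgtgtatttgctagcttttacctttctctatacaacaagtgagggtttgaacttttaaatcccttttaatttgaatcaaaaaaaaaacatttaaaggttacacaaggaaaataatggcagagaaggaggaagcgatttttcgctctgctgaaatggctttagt
STV1 promoter: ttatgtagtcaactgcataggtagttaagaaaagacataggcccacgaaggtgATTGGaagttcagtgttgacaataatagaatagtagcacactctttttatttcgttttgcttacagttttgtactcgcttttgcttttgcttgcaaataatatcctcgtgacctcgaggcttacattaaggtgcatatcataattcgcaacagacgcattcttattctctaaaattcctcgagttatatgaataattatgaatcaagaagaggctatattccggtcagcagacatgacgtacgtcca
VMA1 promoter: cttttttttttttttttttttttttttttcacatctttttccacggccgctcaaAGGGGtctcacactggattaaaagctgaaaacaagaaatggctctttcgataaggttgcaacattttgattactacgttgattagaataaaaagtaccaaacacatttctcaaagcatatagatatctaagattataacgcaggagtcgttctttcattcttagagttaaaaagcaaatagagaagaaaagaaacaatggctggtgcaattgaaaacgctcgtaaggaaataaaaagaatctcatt
VMA4 promoter: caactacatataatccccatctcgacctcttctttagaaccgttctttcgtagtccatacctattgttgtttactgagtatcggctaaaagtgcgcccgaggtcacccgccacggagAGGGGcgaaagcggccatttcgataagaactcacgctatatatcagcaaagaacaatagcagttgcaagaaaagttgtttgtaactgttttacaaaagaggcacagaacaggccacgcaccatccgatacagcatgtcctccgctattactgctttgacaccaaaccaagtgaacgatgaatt

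AGGGG occurs in 4 of the 10 promoters (*VMA1*, *VMA4*, *VMA7* and *VMA13*), against 21.6% of 6001 promoter windows of the same length in R64. Of these genes, *VMA4* (ratio 0.669) and *VMA13* (0.757) were lower in ZK2 and *VMA1* (1.58) was higher. *VMA7* showed little difference (1.01, 0.842 to 1.22). AGGGG lies 196 bases before the start codon in *VMA1* and 133 bases before it in *VMA4*. CCAAT occurs in 1 of the 10, that of *STV1*, 197 bases before the start codon on the opposite strand, against 43.3% of all windows. TATAAA occurs in 2 of the 10 (*VMA2* and *VMA13*), against 45.2%. AGGGAT, the element bound by Gis1, occurs in 1, that of *VPH1*, against 9.33%. It lies on the opposite strand, 55 bases before the start codon, and is not in capitals. A match describes the letters only. The sequences are those of S288c, and the promoters of ZK2 were not analysed here.

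As proportions within a library, the transcripts of the 10 genes were more even in ZK2. The RPKM of the 10 genes spanned 14.6-fold in BYZ1 and 5.15-fold in ZK2, and the standard deviation of their log2 RPKM was 1.14 (counting SE 0.016) in BYZ1 and 0.79 (counting SE 0.015) in ZK2. It was larger in BYZ1 also without *STV1* (0.91 against 0.66), but with 5 more subunits added the values were 1.02 and 0.94. Over these 15 genes the RPKM spanned 14.6-fold in BYZ1 and 10.5-fold in ZK2. Over the 7 V0 genes among them it spanned 9.58-fold in BYZ1 and 10.5-fold in ZK2, which is wider in ZK2. Relative to *VMA2*, the other 2 members of subunits that occur in several copies lay in ZK2 at 1.01 (*VMA1*) and 0.951 (*VMA4*, 0.890 to 1.02). Genes outside the 10 did not share this level. In ZK2 *VMA10*, of the G subunit that pairs with E, had an RPKM of 143, and *VMA3*, of the c subunit, 864, beside 420 for *VMA2*. The genes of C, H, the vacuolar a isoform and d lay close together in ZK2. They were at 0.517 for *VMA5*, 0.499 for *VMA13*, 0.473 for *VPH1* and 0.459 for *VMA6*. In BYZ1 these 4 genes were at 0.226, 0.535, 0.226 and 0.285 of *VMA2*. Not all genes of single-copy subunits lay with these. The rotor genes *VMA7* and *VMA8* were at 0.345 and 0.298 in ZK2 and at 0.276 and 0.256 in BYZ1. The other a isoform gene, *STV1*, was at 0.196 in ZK2 and 0.0791 in BYZ1.

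In order of RPKM, BYZ1 ran from *VMA4* through *VMA2*, *VMA13*, *VMA1*, *VMA6*, *VMA7*, *VMA8*, *VMA5* and *VPH1* to *STV1*. The neighboring pairs *VMA13* and *VMA1*, *VMA6* and *VMA7*, *VMA7* and *VMA8*, and *VMA5* and *VPH1* did not differ beyond counting error. ZK2 ran from *VMA1* through *VMA2*, *VMA4*, *VMA5*, *VMA13*, *VPH1*, *VMA6*, *VMA7* and *VMA8* to *STV1*. Here the intervals excluded 1 only between *VMA4* and *VMA5* (1.84), *VMA6* and *VMA7* (1.33), and *VMA8* and *STV1* (1.52). The rank correlation of the levels between the strains was 0.67 (Spearman's rho over the 10 genes, a description of genes that share the same 2 libraries).

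**Figure D3:**
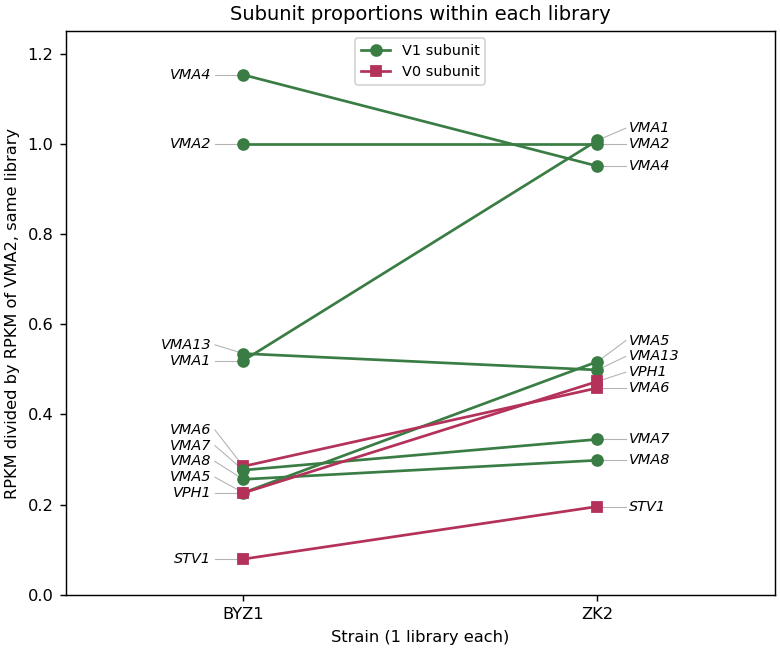
RPKM of each member divided by that of *VMA2* in the same library, joined between BYZ1 and ZK2 (1 library each), with V1 genes as circles and V0 genes as squares. In ZK2 *VMA1* and *VMA4* lie near *VMA2* (1.01 and 0.951), and *VMA5*, *VMA13*, *VPH1* and *VMA6* lie between 0.459 and 0.517.

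The members were then read against all genes. The log2 of the ratio of RPKM plus 1 was taken over the 5080 genes that reached an RPKM of 10 in either library, and all 10 members passed this filter. The median of all genes was -0.17 and that of the members 0.20. With a log2 ratio of 1 in size as the call, 0 of the 10 members were called higher in ZK2 and 0 lower, against 7.91% and 10.3% of all genes. *STV1* missed the call by little, at 0.99. With 0.5 as the call, 4 of 10 were higher (*STV1*, *VMA5*, *VPH1* and *VMA1*), against 18.6% of all genes, and 1 was lower (*VMA4*), against 30.7%. Without replicates these calls are by size alone. When the median gene ratio was set to 0 instead, *STV1* and *VMA5* were called higher, at 1.16 and 1.06, and no member lower, against 10.6% and 6.71% of all genes. This scaling moved the share of higher among all calls from 43.4% to 61.2%.

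Sorted by sector, the 7 V1 members had a median log2 ratio of -0.08, from -0.58 to 0.89, and 3 of them were above 0. The 3 V0 members had a median of 0.76, from 0.38 to 0.99, and all 3 were above 0. Of all genes tested, 40.2% were above 0, with a median of -0.17. Of the V0 genes listed outside the 10, *VMA3*, *VMA16* and *VMA11* were also higher in ZK2, and *VMA9* was not. *VMA3*, the c subunit of the proton-carrying ring (listed as *CUP5*), was at 391 in BYZ1 and 864 in ZK2, a ratio of 2.21 (2.04 to 2.39). *VMA16*, the c″ subunit (listed as *PPA1*), was at 124 and 241 (1.95, 1.71 to 2.21), and *VMA11*, the c′ subunit (listed as *TFP3*), was at 81.0 and 116 (1.43, 1.18 to 1.73). *VMA9*, the small e subunit of V0, went the other way, with 157 reads in BYZ1 and 90 in ZK2 (0.588, 0.448 to 0.766). *VMA10*, the G subunit that pairs with E in the stalks of V1, was at 157 and 143 (0.908, 0.756 to 1.09).

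Counting these, 6 of 7 V0 genes and 3 of 8 V1 genes had a log2 ratio above 0, with medians of 0.76 and -0.11, beside 40.2% and -0.17 for all genes. The V1 genes thus lay near the centre of all genes, with 5 of 8 above the median of all genes. Over these 15 subunit genes, which leave out *VOA1*, 1 was called higher (*VMA3*) and 0 lower, against 7.91% and 10.3% of all genes. The count of higher calls was thus close to the background. The ratio of the c to the c″ transcript, subunits of the same ring, was 3.16 (2.79 to 3.57) in BYZ1 and 3.58 (3.28 to 3.91) in ZK2, and the change between the strains was within counting error (1.13, 0.974 to 1.32).

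**Figure D4:**
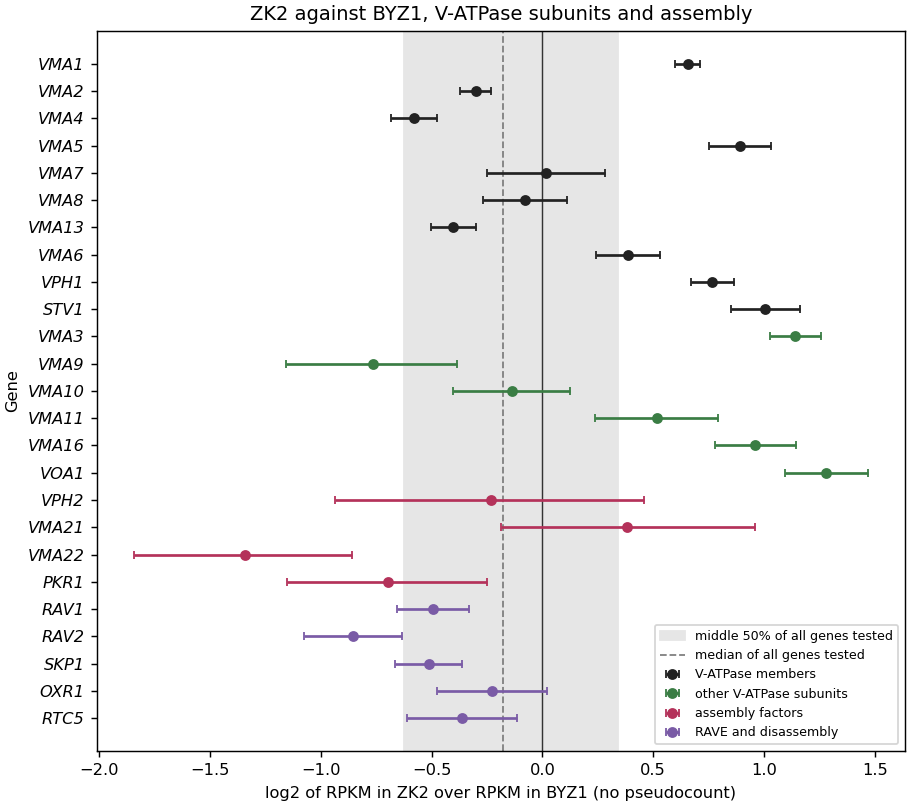
Log2 of RPKM in ZK2 over RPKM in BYZ1, without a pseudocount, for the 10 members, other V-ATPase subunits, assembly factors and factors of reversible assembly, with exact 95% binomial intervals. The shaded band holds the middle 50% of all genes tested and the dashed line their median. The V0 genes other than *VMA9* lie above 0, and the factors of reversible assembly lie below 0, with the interval of *OXR1* reaching above it.

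In the endoplasmic reticulum V0 is assembled by Vph2 (Vma12), Vma21, Vma22 and Pkr1, and Voa1 binds to it there. The genes of the first 4 factors had a median log2 ratio of -0.45, beside -0.17 for all genes. Of these, 1 of 4 was above 0, against 40.2% of all genes. *VOA1* was not counted among the 4 and was called higher, so the median does not describe all factors named here. *VMA22* was at 50.8 in BYZ1 and 20.0 in ZK2, from 130 and 50 reads (0.394, 0.279 to 0.550), and was called lower with a log2 ratio of -1.30. *PKR1* was at 65.3 and 40.3 (0.617, 0.450 to 0.841). *VPH2* had 41 reads in BYZ1 and 34 in ZK2 (0.850, 0.523 to 1.37) and *VMA21* 48 and 61 (1.30, 0.878 to 1.94), with intervals that hold 1 at this depth. *VOA1* was at 89.3 and 217 (2.43, 2.13 to 2.77) and was called higher, with a log2 ratio of 1.27. *VOA1* and *VMA21* face each other 156 bases apart on chromosome VII in R64, so without strand their reads near the ends cannot be told apart.

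All 5 genes of reversible assembly were lower in ZK2 by value, where 40.2% of all genes had a log2 ratio above 0. None of the 5 was called higher or lower, against 7.91% and 10.3% of all genes. The RAVE complex rejoins V1 and V0 when glucose returns, and its genes *RAV1*, *RAV2* and *SKP1* had ratios of 0.711 (0.635 to 0.796), 0.553 (0.474 to 0.644) and 0.701 (0.631 to 0.778). *OXR1* and *RTC5*, of which the proteins promote disassembly in yeast, had ratios of 0.854 (0.720 to 1.01) and 0.779 (0.656 to 0.924). The median log2 ratio of these 5 genes was -0.48, beside -0.17 for all genes. Skp1 also serves in ubiquitin ligases, so its transcript is not specific to this complex.

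Among 9 genes of exchangers and permeases coupled to protons of the vacuole or endosome, 8 had a log2 ratio above 0, against 40.2% of all genes, and the median was 0.58, beside -0.17. Of the 9, 2 were called higher and 0 lower, against 7.91% and 10.3% of all genes. The highest was the endosomal sodium and proton exchanger gene *NHX1*, at 46.8 in BYZ1 and 106 in ZK2 (2.27, 2.02 to 2.56). The amino acid transporter gene *AVT1* was also called higher (2.21, 1.96 to 2.49), and the lowest was *AVT6*, at 133 and 79.4 (0.597, 0.533 to 0.668).

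The 14 nuclear genes of the mitochondrial F1Fo ATP synthase, a rotary enzyme related to the V-ATPase that makes ATP, stood at a median RPKM of 974 (BYZ1) and 980 (ZK2), which is 6.71 and 4.81 times the median of the V-ATPase members. Their median log2 ratio was 0.01, from -0.76 (*ATP19*) to 1.19 (*ATP20*), with 1 called higher and 0 lower, against 7.91% and 10.3% of all genes. The mitochondrial counterparts of the A and B subunits are encoded by *ATP2* and *ATP1*, with ratios of 1.43 (1.40 to 1.45) and 0.994 (0.971 to 1.02). *PMA1*, which encodes the proton pump of the plasma membrane, had 4361 reads in BYZ1 and 24046 in ZK2, an RPKM of 337 and 1908 (5.65, 5.47 to 5.84). *PMA2*, its homolog, was at 310 and 344 (1.11, 1.06 to 1.16). Only 91.4% of the windows of *PMA1* and 91.7% of those of *PMA2* were unique, so both values are less certain. Relative to the median of the 10 V-ATPase genes, *PMA1* was at 2.33 in BYZ1 and at 9.36 in ZK2.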

How the data were processed

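RNA-Seq of 1 library each of BYZ1 and ZK2 was analysed from the deposited tables. Per the study's methods, the authors discarded reads with adapters and those in which low-quality bases (5 or below) exceeded 50%, and used SOAPAligner against the genes of S288c or YJSH1. Its version, and the aligner and number of cultures behind ZK2, are not given in the sources used here. A ZK2 sequence that departs from the reference loses reads, which was not tested. The deposited counts are uniquely mapped reads per gene, not normalized, and a gene with 0 reads has no entry. The deposited RPKM divides them by coding length and total reads, and recomputing it gave the same values. The deposited percent of each length covered was used as given. Gene coordinates are sacCer2, per the submitters' processing notes. Names, neighbors and sequences are R64 and its annotation, matched by gene identifier (5693 of 5699 matched).

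Strains were compared as log2 of the RPKM ratio with a pseudocount of 1, which understates changes of low genes, over genes that reached an RPKM of 10 in either library. The steps were tested on simulated data. Alternatives were the TMM factor (edgeR 4.0.16), the median ratio as the scale, totals without the 10 highest genes of each library, pseudocounts of 0.1 and 5, no filter or an RPKM of 50, a call at 0.5, the covered length, reads without length and other sets of subunits. Python 3.11.15, scipy 1.17.1 and Biopython 1.88 were used. The text names the 10 members, the other subunits, the assembly and RAVE factors, *PMA1*, *PMA2* and the extremes of the other lists. *AVT1*, *ATP1*, *ATP2*, *BUB2*, *UGA1* and pairs other than *VPH1* over *STV1* and those over *VMA2* were chosen after their values were seen. The members and lists were chosen with earlier results of these data known.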

Additional observations from a re-analysis of the deposited data

How the results depend on the processing

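The count of members called higher in ZK2 was 0 of 10 in the main setting. Under the TMM factor it was 2, where 536 of 5069 genes were called higher. With the median of gene ratios set to 0 it was 2, against 10.6% of all genes. With a pseudocount of 0.1 it was 1 (*STV1*), where 421 of 5080 genes were called higher. With a call at 0.5 it was 4, against 18.6% of all genes, and 1 was called lower, against 30.7%. The count of higher calls was 0 with totals without the 10 highest genes, where 407 of 5181 genes were called higher. It was also 0 with a pseudocount of 5 (332 of 5080 genes) and with no filter (445 of 5699). A filter at an RPKM of 50 (283 of 2573) and the covered length (357 of 5361) gave 0 as well. The median log2 ratio of the members, 0.20, was 0.38 under TMM and 0.37 with the median set to 0, because these scales moved the median of all genes by 0.18 and 0.17, and it lay between 0.19 and 0.20 under the others. Of 80 member values under alternatives, 77 kept their sign. The exceptions were *VMA7* with the covered length (-0.01) and *VMA8* under TMM and the median scale (both 0.09). Of the same 80 values, 64 stayed within the counting interval of the main value. The others all fell under TMM or the median scale. The choice of scale thus moved most member ratios beyond the printed intervals, which cover counting error only. *VPH1* over *STV1* was 2.69 and 2.80 in BYZ1 and 2.28 and 2.42 in ZK2 as reads without length and with the covered length, and its change between the strains was 0.864 with the covered length. The standard deviation of log2 RPKM was 0.91 in BYZ1 and 0.66 in ZK2 without *STV1*, and 1.02 and 0.94 with *VMA3*, *VMA9*, *VMA10*, *VMA11* and *VMA16* added. A length for *VMA1* without its intein was not run, because reads covered the intein. No paired analysis was possible because each strain has 1 library. Depth limits the assembly factors most, of which *VPH2* had 34 reads in ZK2.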
